A study of Mus musculus with 6 samples.

Results

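The 42 mitosis and kinetochore genes described here encode the proteins that condense, attach, hold back and separate chromosomes in dividing cells. They were taken by gene symbol from a list of names, and all 42 of the 42 were found among the 25164 genes of the expression table. All 42 averaged at least 1 FPKM (fragments scaled to transcript length and to mapped fragments) over the libraries, and so all were among the 12442 genes tested. RNA of whole day 1 ovaries of C57BL/6 mice was sequenced in 6 libraries. Of these, 3 are labelled hnRNPL flox/flox;Stra8-cre (cKO), that is, Hnrnpl carries floxed alleles and Cre is expressed from a transgene, and 3 are labelled wild type (WT). For WT ovaries the labels name no allele or transgene, and they do not say that replicates are different animals, so p-values reflect library-to-library spread, which may be technical. The Stra8 promoter drives Cre in germ cells, which leaves the somatic cells of a cKO ovary outside the deletion by design. The protocol also mentions a hormone challenge and does not say what it was.

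Transcripts of these genes rise in cells that approach division and are removed as the cells leave it, so that their level in a tissue follows the number of cycling cells. FOXM1 and the B-MYB protein encoded by Mybl2 switch on many of them through short promoter elements shared by the group. In the ovary around birth the oocytes have stopped in meiotic prophase and no longer divide by mitosis, while surface epithelium, stroma, vessels and part of the pregranulosa cells still cycle. Oocytes nevertheless store transcripts of several of the genes for the meiotic divisions. In a whole ovary, fewer dividing cells and less of a transcript per cell cannot be told apart.

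The promoters of a few members are shown because they carry the elements that this group of genes is known for. The window ran from 250 bases before to 50 bases after the start of the gene (RefSeq, GRCm38.p6), and 34 of the 42 members had one in the table used. Capitals mark, on either strand, the core of the cell cycle genes homology region (CHR, TTTGAA or TTCGAA) and the CCAAT box. Mki67, the gene with the smallest p among the members, lies on the minus strand with the window chr7:135716330-135716629. Top2a, which belongs to the same role, has its window at chr11:99024140-99024439 on the minus strand. Cdca8 stands for a member that was higher in every cKO library, with the window chr4:124936868-124937167 on the minus strand, and Espl1 for the anaphase genes, with chr15:102296043-102296342 on the plus strand.
Mki67: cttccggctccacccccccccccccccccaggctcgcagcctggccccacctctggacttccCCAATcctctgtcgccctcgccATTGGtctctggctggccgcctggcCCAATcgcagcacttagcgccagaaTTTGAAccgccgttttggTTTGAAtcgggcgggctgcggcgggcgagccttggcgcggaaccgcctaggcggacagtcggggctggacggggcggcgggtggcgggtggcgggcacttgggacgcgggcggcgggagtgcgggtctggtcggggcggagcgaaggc
Top2a: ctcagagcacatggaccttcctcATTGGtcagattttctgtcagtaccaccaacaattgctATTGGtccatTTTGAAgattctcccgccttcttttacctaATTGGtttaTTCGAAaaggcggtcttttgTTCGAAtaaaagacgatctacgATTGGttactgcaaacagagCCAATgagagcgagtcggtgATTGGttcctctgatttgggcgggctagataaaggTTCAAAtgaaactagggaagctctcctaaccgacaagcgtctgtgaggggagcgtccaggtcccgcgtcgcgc
Cdca8: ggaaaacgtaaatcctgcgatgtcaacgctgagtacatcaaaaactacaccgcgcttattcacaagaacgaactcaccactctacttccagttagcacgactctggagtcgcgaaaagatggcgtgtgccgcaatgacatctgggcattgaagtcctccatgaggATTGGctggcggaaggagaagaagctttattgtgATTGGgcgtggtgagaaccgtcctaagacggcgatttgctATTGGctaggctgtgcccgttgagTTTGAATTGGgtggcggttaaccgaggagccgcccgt
Espl1: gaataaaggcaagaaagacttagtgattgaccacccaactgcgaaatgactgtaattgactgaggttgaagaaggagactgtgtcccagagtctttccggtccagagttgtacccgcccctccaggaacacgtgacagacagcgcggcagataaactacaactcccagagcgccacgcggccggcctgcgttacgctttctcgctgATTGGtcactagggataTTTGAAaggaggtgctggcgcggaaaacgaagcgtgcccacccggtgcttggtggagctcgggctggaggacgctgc

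Mki67 carried 2 CHR cores and 3 CCAAT boxes, and Top2a carried 4 and 6. In Cdca8 the single CHR core shares its final letter with the last of 4 CCAAT boxes, and Espl1 had 1 of each. A CHR core was present in 25 of the 34 member promoters (73.5%), against 21.7% of 27025 genes with a promoter in the table. A CCAAT box was present in 24 members (70.6%), against 41.1% of those genes, and both elements were present in 21 members (61.8%), against 8.61%. These are matches of letters in a fixed window. The median log2 fold change of cKO over WT was -0.07 in the 25 members with a CHR core and -0.08 in the 9 without.

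The ovary label matched its markers in both groups. Foxl2, a transcription factor of granulosa cells, was at 64.9 to 86.5 FPKM in cKO and 57.5 to 60.2 FPKM in WT libraries. Ddx4, a germ cell RNA helicase, was at 3.53 to 6.53 FPKM in cKO and 4.49 to 5.69 FPKM in WT libraries. Without rescaling Ddx4 was the only negative gene among 16 tested germ cell markers, so it does not stand for their level. Hnrnpl itself had 101, 81.5 and 85.2 FPKM in cKO libraries and 104, 93.8 and 102 FPKM in WT libraries. At a log2 fold change of -0.17 (SE 0.13) it missed the threshold (limma adjusted p = 0.571; 0.0934 to 0.816 over 23 alternative settings), and a gene-level value neither separates the floxed exons nor the germ cells. One library stood apart. Summed FPKM was 335667 in cKO replicate 1, where short transcripts were higher, and 223845 to 246121 in the remaining libraries. Its estimated depth was the lowest, at 7220000 fragments, against 10800000 to 14400000 in the others. Counts over the members are therefore given both on FPKM as deposited and after median-of-ratios scaling, which divides each library by the median ratio of its genes to their means. Values of single genes are on FPKM as deposited unless scaling is named.

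No mitotic transcript passed the test between cKO and WT ovaries on FPKM as deposited, which does not show that the levels were equal. Without rescaling, 0 of the 42 members passed at an adjusted p under 0.05, where 15 of all 12442 genes did (0.121%, or 0.0482% higher and 0.0723% lower in cKO). At an unadjusted p under 0.05, 6 members passed, 2 higher and 4 lower in cKO, which is 14.3% of the members. Of all tested genes 14.2% passed at that level, 9.89% higher and 4.26% lower. Log2 fold changes of the members ran from -0.47 to 0.41, and 18 were positive and 24 negative. Their median was -0.07, against 0.08 for all tested genes, of which 34.8% were negative. The 3 cKO values lay wholly above the 3 WT values for Cdca8 and Ndc80 and wholly below them for Mki67 and Bub1b. Those 4 members are 9.52% of the list, and 22.6% of all tested genes had such a gap (15.5% higher, 7.03% lower).

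After scaling, Mki67 fell and was the only member that passed (1 of 42, against 1.29% of all tested genes called, 0.764% higher and 0.53% lower). Then 12 members were positive and 30 negative, with a median of -0.15 against 0.00 for all tested genes. Members without overlap became 2 higher (4.76%, against 12.6% of all genes) and 11 lower (26.2%, against 13.0%). The 11 were Mki67, Top2a, Cdk1, Aurka, Bub1b, Cenpf, Kif20a, Kif2c, Nusap1, Foxm1 and Mybl2. Their gaps differed in size. The highest scaled cKO value and the lowest WT value were 12.0 and 16.7 for Mki67, but 6.67 and 6.68 for Kif20a and 3.43 and 3.51 for Kif2c. At an unadjusted p under 0.05, 2 members were higher and 10 lower, against 9.53% and 9.41% of all genes.

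**Figure D1:**
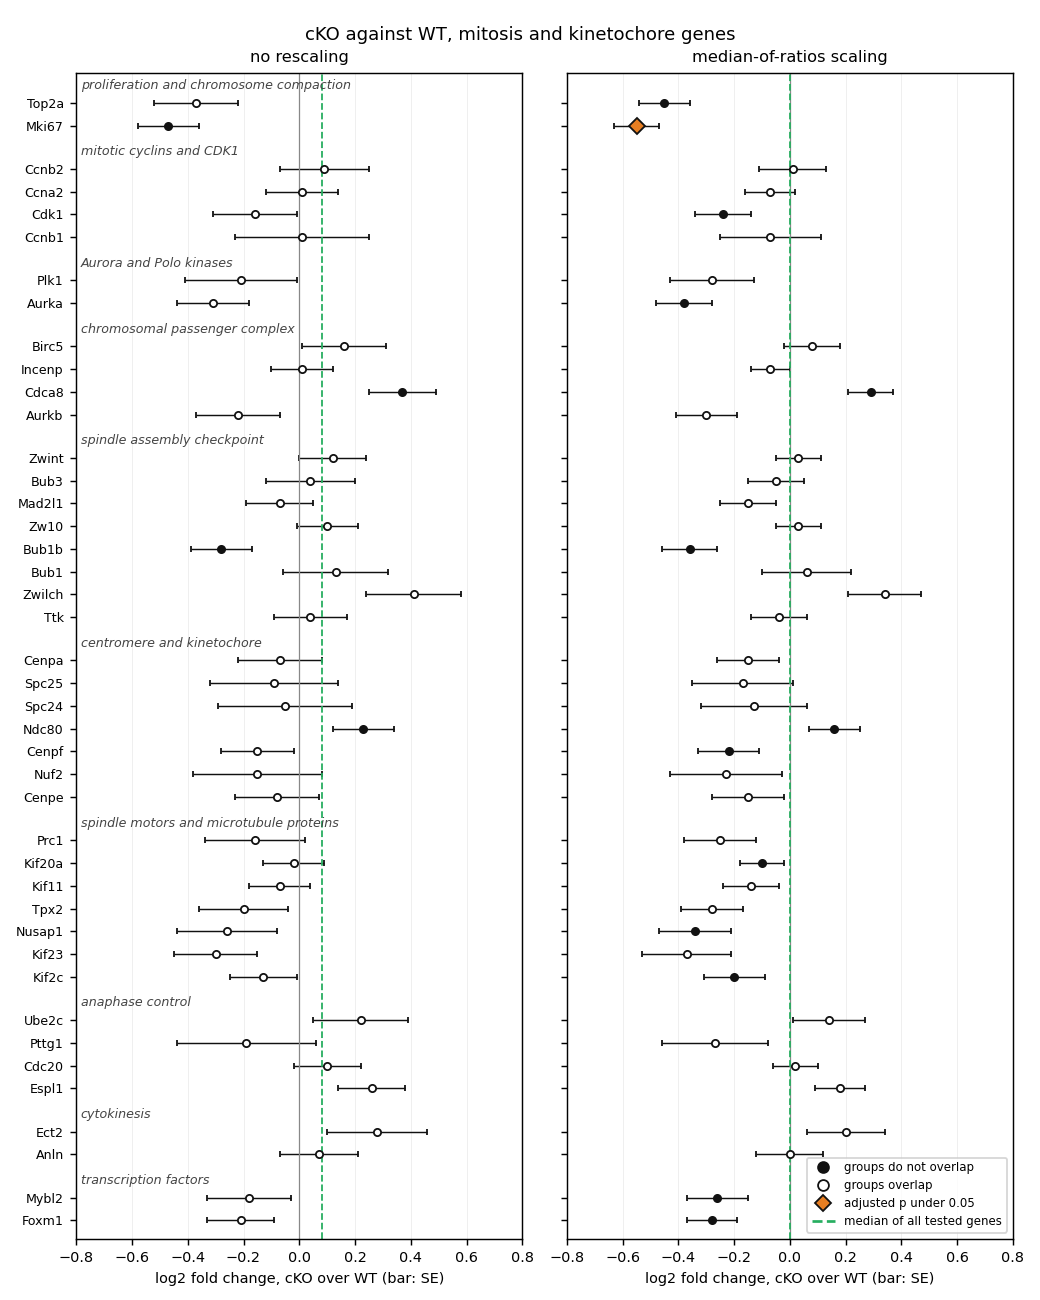
Log2 fold change of cKO over WT for each of the 42 members, grouped by role, on FPKM without rescaling (left) and after median-of-ratios scaling (right). Bars are standard errors (n = 3 libraries a group), filled circles mark members whose groups do not overlap, the diamond marks a member with an adjusted p under 0.05, and the dashed line is the median of all tested genes, 0.08 on the left and 0.00 on the right. Mki67 at -0.47 and -0.55 is the lowest member in both panels, and Zwilch at 0.41 and 0.34 the highest.

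Proliferation and chromosome compaction are represented by Mki67, which encodes the Ki-67 protein that coats mitotic chromosomes and marks cycling cells, and by Top2a, the topoisomerase that untangles sister DNA. Mki67 had 13.3, 11.6 and 10.9 FPKM in cKO libraries, against 16.9, 18.1 and 15.9 FPKM in WT libraries. Every cKO library was below every WT library. The log2 fold change was -0.47 (SE 0.11) and did not pass (limma adjusted p = 0.148, and 0.0145 to 0.453 over 23 alternative settings). Scaled values stood at 11.3, 12.0 and 11.2 in cKO libraries and at 17.1, 18.4 and 16.7 in WT libraries. The scaled log2 fold change of -0.55 (SE 0.08) passed (limma adjusted p = 0.020), but not with the replicate block (limma adjusted p = 0.0766). That call depended on single libraries: on the scaled values the adjusted p was 0.0793 without cKO replicate 2, 0.158 without WT replicate 1, 0.097 without WT replicate 2 and 0.119 without WT replicate 3, each with a fold change of the same sign. By an exact permutation test (two-sided) p was 0.1 on both scales, the smallest that 3 against 3 libraries allow.

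Top2a had 17.3, 11.3 and 12.5 FPKM in cKO libraries and 18.0, 18.8 and 16.5 FPKM in WT libraries. Replicate 1 of the cKO group lay within the WT range, and the other cKO libraries lay below it. Its log2 fold change without scaling was -0.37 (SE 0.15, limma adjusted p = 0.34, and 0.0393 to 0.618 over 23 alternative settings). With scaling it was -0.45 (SE 0.09, limma adjusted p = 0.0646, and 0.0472 to 0.243 with the replicate block or a library left out). The ratio of Mki67 to Top2a FPKM within a library was 0.771, 1.03 and 0.874 in cKO and 0.938, 0.96 and 0.963 in WT. The cKO ratios lay on both sides of the WT ones and were more spread out.

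The mitotic cyclins and their kinase gave no member that passed. Cdk1, the kinase that drives entry into mitosis, had 9.58, 7.14 and 6.14 FPKM in cKO libraries, against 8.63, 8.66 and 8.14 FPKM in WT libraries. The cKO libraries fell on both sides of the WT ones, and the log2 fold change was -0.16 (SE 0.15, limma adjusted p = 0.634). Ccna2, Ccnb1 and Ccnb2 encode its cyclin partners. They stood at 0.01, 0.01 and 0.09 on the log2 scale without and at -0.07, -0.07 and 0.01 with scaling. Ccnb1 was the most scattered of the 3, with 12.3 FPKM in cKO replicate 1 and 5.79 and 6.66 FPKM in the other cKO libraries, against 6.91 to 8.85 FPKM in WT libraries. Without cKO replicate 1, where both genes were highest, the log2 fold change of Ccnb1 was -0.28 and that of Cdk1 -0.31, and neither passed. Over 23 alternative settings Cdk1 ran from -0.374 to -0.03. The omission of another library is not given for Ccnb1. Ccnb1 and Ccnb2 each have a pseudogene named after them, so that reads may have been split.

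Aurka, the Aurora kinase of the spindle poles, had 4.36, 3.5 and 3.42 FPKM in cKO libraries and 5.13, 5.39 and 4.21 FPKM in WT libraries. Only the highest cKO and the lowest WT value overlapped, and the log2 fold change was -0.31 (SE 0.13, limma adjusted p = 0.332). After scaling the groups did not overlap, at -0.38 (SE 0.10, limma adjusted p = 0.107; 0.141 to 0.308 with the replicate block or a library left out). Plk1, the Polo kinase of mitotic entry and centrosome maturation, ranged from 2.87 to 5.87 FPKM in cKO and from 4.52 to 4.88 FPKM in WT. Its log2 fold change was -0.21 (SE 0.20), and -0.44 without cKO replicate 1, where Plk1 was highest. The omission of another library is not given for Plk1, so this value alone does not show a decrease.

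The 4 genes of the chromosomal passenger complex, which corrects faulty attachments and guides cytokinesis, had log2 fold changes from -0.22 to 0.37, and 0 of 4 passed on either scale. Cdca8 encodes borealin, the subunit that helps bring the complex to centromeres. It had 11, 9.29 and 8.13 FPKM in cKO libraries, against 7.05, 6.96 and 7.15 FPKM in WT libraries. Every cKO value was above every WT value, yet the difference of 0.37 on the log2 scale (SE 0.12) missed the threshold (limma adjusted p = 0.241; 0.126 to 0.571 over 23 settings). It was 0.29 (SE 0.08) after scaling, and 0.23 (SE 0.07) once the dependence on transcript length and GC content was removed. Aurkb, the kinase of the complex, had a log2 fold change of -0.22 (SE 0.15) and overlapped, with 5.08 to 7.18 FPKM in cKO and 5.91 to 7.58 FPKM in WT. Incenp, the scaffold, and Birc5, which encodes survivin, were at 0.01 and 0.16.

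Ratios between 2 genes of the same library do not depend on a factor that scales the whole library. The shift with transcript length in cKO replicate 1 does not cancel in them, and Cdca8 has 1626 bases where Mki67 has 10061. Over the 15 pairs computed, chosen after values had been seen and given without a test, 4 had groups that did not overlap (26.7%), against 260 of the 861 pairs that the 42 members can form (30.2%). The ratio of Cdca8 to Aurkb was 1.53, 1.83 and 1.58 in cKO libraries and 0.975, 1.18 and 0.944 in WT libraries. The ratio of Cdca8 to Incenp was 0.866, 0.883 and 0.776 in cKO and 0.603, 0.653 and 0.658 in WT, and that of Cdca8 to Mki67 was 0.824, 0.798 and 0.743 in cKO and 0.418, 0.386 and 0.451 in WT. Over the 41 pairs of Cdca8 with each other member, the cKO ratios all lay above the WT ratios in 30 and all below in 0. These pairs share the values of Cdca8 and are not independent. The other subunits kept overlapping ratios, Incenp to Aurkb with 1.76 to 2.07 in cKO and 1.43 to 1.80 in WT. Cdca8 overlaps 9930104L06Rik on the other strand, and since the use of strand in counting is not stated, reads in the shared stretch cannot be told apart. This limit is common in the list. Of the 42 members 22 overlap another annotated gene, Mki67 among them, and 10 overlap a protein-coding one, among them Bub3, Nusap1, Prc1 and Cdc20.

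**Figure D2:**
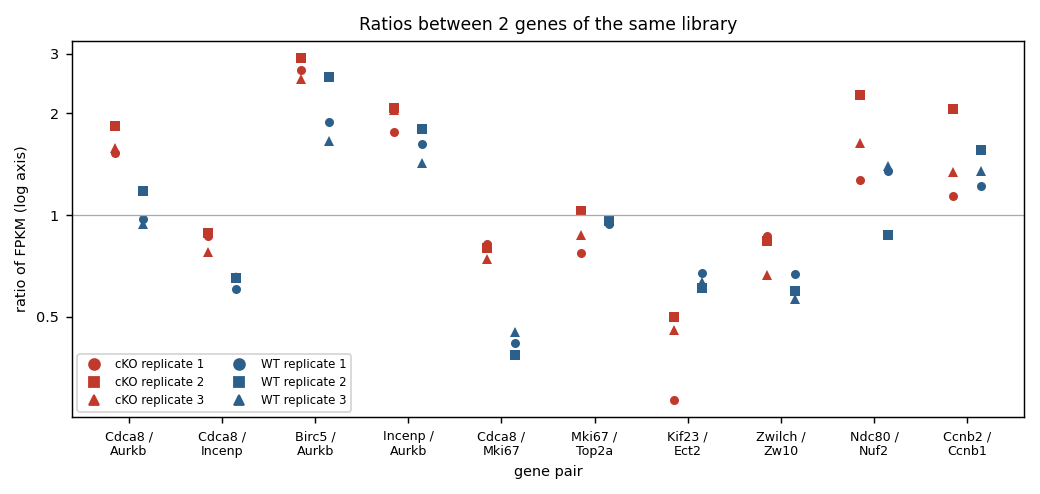
Ratio of the FPKM of 2 members within each library (log axis) for 10 of the 15 pairs computed, with cKO libraries left of WT libraries and symbols for replicates. The 3 pairs with Cdca8 as numerator lie higher in cKO, Kif23 to Ect2 lies lower in cKO, and the other pairs overlap.

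Spindle assembly checkpoint genes, whose proteins hold anaphase until every kinetochore is attached, held members at both ends. Bub1b encodes BubR1, a part of the inhibitor of the anaphase promoting complex. It had 5.75, 4.95 and 4.96 FPKM in cKO libraries and 7.5, 6.2 and 6.01 FPKM in WT libraries. All cKO values lay below all WT values, which is -0.28 on the log2 scale (SE 0.11, limma adjusted p = 0.33). Zwilch belongs to the complex that brings dynein and checkpoint proteins to kinetochores. It had 8.07, 6.26 and 4.73 FPKM in cKO libraries, against 4.91, 4.32 and 4.11 FPKM in WT libraries, and only cKO replicate 3 reached into the WT range. At 0.41 on the log2 scale (SE 0.17, limma adjusted p = 0.33), the difference was 0.34 (SE 0.13) after scaling and 0.25 without cKO replicate 1. The gene overlaps Lctl on the other strand. Zw10, of the same complex, stood at 0.10 (SE 0.11).

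Zwint, a kinetochore protein that anchors this complex, had the highest mean of the members. It had 38.9, 34.0 and 30.2 FPKM in cKO libraries and 33.5, 30.8 and 30.0 FPKM in WT libraries, which overlapped (log2 fold change 0.12, SE 0.12, limma adjusted p = 0.669). Bub3, which loads BUB1 and BubR1 on kinetochores, was second with 24.8, 15.9 and 18.1 FPKM in cKO and 18.4, 20.5 and 17.2 FPKM in WT. The cKO libraries of Bub3 spanned the WT range on both sides, with a log2 fold change of 0.04 without and -0.05 with scaling. Mad2l1, Bub1 and Ttk, which encode MAD2 and the kinases BUB1 and MPS1, had log2 fold changes of -0.07, 0.13 and 0.04 and overlapped.

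Centromere and kinetochore genes gave 0 of 7 passing and a median of -0.08 (-0.15 with scaling). Ndc80, the outer kinetochore protein that binds microtubules, was the one positive member. It had 5.36, 4.3 and 4.11 FPKM in cKO libraries, against 3.79, 3.72 and 3.74 FPKM in WT libraries. The cKO values were all above the WT values, by 0.23 on the log2 scale (SE 0.11, limma adjusted p = 0.41; 0.283 to 0.82 over 22 settings). Its partners in the same complex were scattered instead: Nuf2 had 4.22, 1.9 and 2.51 FPKM in cKO and 2.81, 4.25 and 2.67 FPKM in WT. Spc24 had 2.98 to 7.05 FPKM in cKO and 4.04 to 4.91 FPKM in WT, and Spc25 had 4.26 to 9.1 FPKM in cKO and 5.58 to 7.48 FPKM in WT. Over all libraries Nuf2, Spc24 and Spc25 had log2 fold changes of -0.15, -0.05 and -0.09. Without cKO replicate 1, which held the highest cKO value of each, they were at -0.39, -0.35 and -0.36, and none of the 3 passed. The omission of another library is not given for them, so these values alone do not show a decrease. At about 45 fragments in its lowest library, Nuf2 rested on the fewest of all members, where the median over members and libraries was about 240. Cenpa, the centromeric histone, and the large kinetochore proteins of Cenpe and Cenpf were at -0.07, -0.08 and -0.15.

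**Figure D3:**
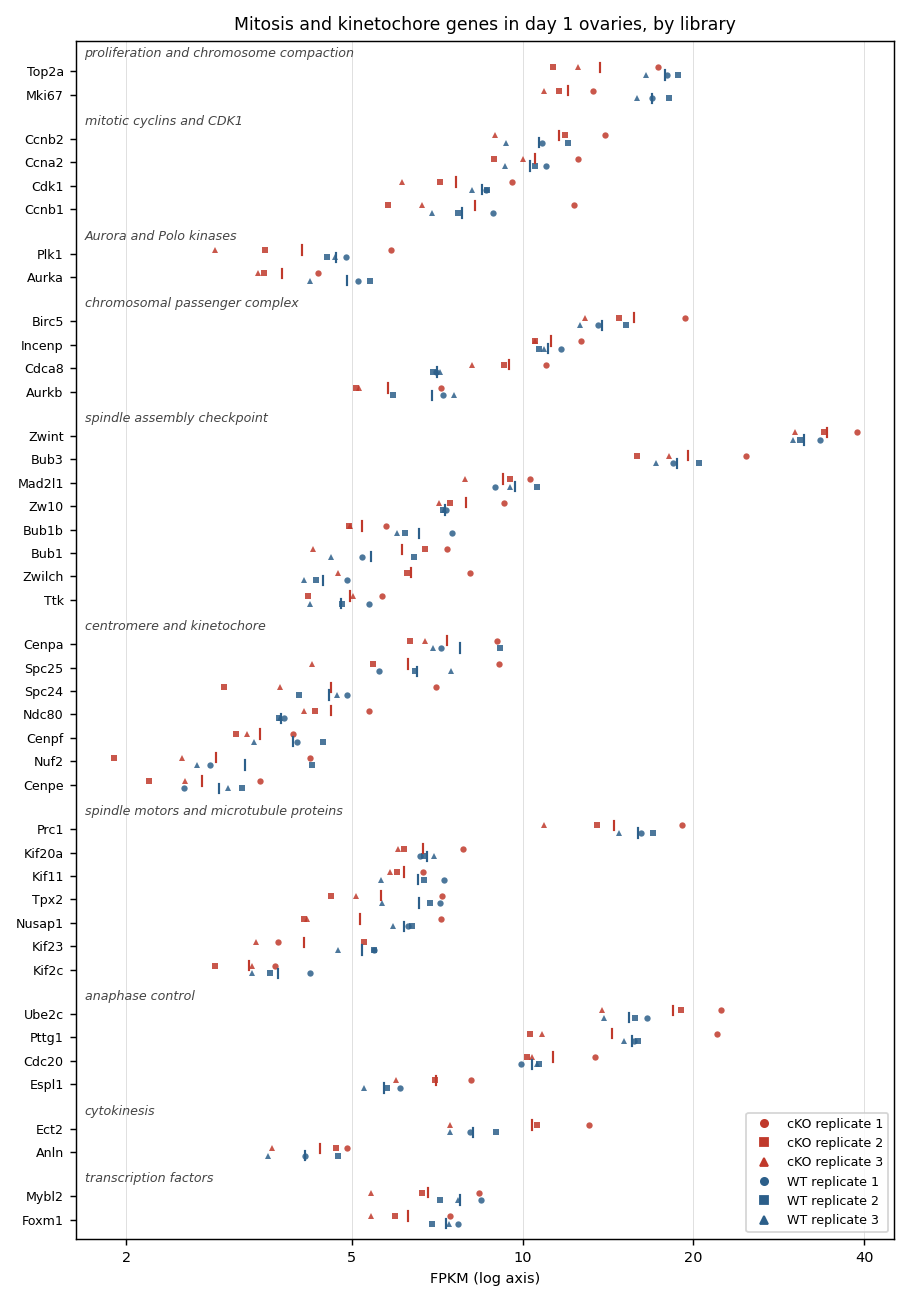
FPKM of the 42 members in each library (log axis), grouped by role, with cKO libraries above WT libraries for each gene and vertical ticks at the group means. Zwint (30.0 to 38.9 FPKM) and Bub3 (15.9 to 24.8 FPKM) are high in all 6 libraries, the WT libraries of Cdca8, Ndc80 and Zw10 lie close together, and cKO replicate 1 (red circles) is often the rightmost point.

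All 7 genes of spindle motors and microtubule proteins had a negative log2 fold change, from -0.30 to -0.02, with a median of -0.16 (-0.25 with scaling), and 0 passed. Kif23, a kinesin of the central spindle, had the smallest p. It had 3.7, 5.26 and 3.39 FPKM in cKO libraries and 5.46, 5.46 and 4.73 FPKM in WT libraries, where cKO replicate 2 lay within the WT range (log2 fold change -0.30, SE 0.15, limma adjusted p = 0.41). Nusap1, which bundles spindle microtubules, stood at -0.26 (SE 0.18), and Tpx2, the activator of Aurora A, at -0.20 (SE 0.16). Without cKO replicate 1, where both were highest, Nusap1 was at -0.48 and Tpx2 at -0.37, and neither passed. The omission of another library is not given for Nusap1 and Tpx2, so these values alone do not show a decrease. Prc1, which crosslinks the central spindle, stood at -0.16 (SE 0.18), and the kinesins Kif2c, Kif11 and Kif20a at -0.13, -0.07 and -0.02.

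Cytokinesis is represented by Ect2 and Anln, and neither passed. Ect2, the exchange factor that activates RhoA at the cleavage furrow, had 13.1, 10.6 and 7.44 FPKM in cKO libraries and 8.08, 8.97 and 7.46 FPKM in WT libraries. Replicate 3 of cKO was the lowest of all 6, and the difference of 0.28 on the log2 scale (SE 0.18) missed the threshold (limma adjusted p = 0.499) and was 0.11 without cKO replicate 1. Kif23 recruits Ect2 to the central spindle through its partner protein, and the ratio of Kif23 to Ect2 was 0.283, 0.498 and 0.456 in cKO libraries and 0.676, 0.609 and 0.634 in WT libraries. Anln, the anillin of the contractile ring, stood at 0.07 (SE 0.14) without scaling and at 0.00 with it.

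Anaphase control covers the activators of the anaphase promoting complex and the enzyme that cuts cohesin, and 3 of the 4 genes were positive. Espl1 encodes separase, the cutting enzyme. It had 8.12, 7.02 and 5.97 FPKM in cKO libraries, against 6.08, 5.76 and 5.25 FPKM in WT libraries. Only cKO replicate 3 reached into the WT range, and the log2 fold change was 0.26 (SE 0.12, limma adjusted p = 0.389). Ube2c, the ubiquitin-conjugating enzyme of that complex, had 22.4, 19.0 and 13.8 FPKM in cKO libraries and 16.6, 15.8 and 13.9 FPKM in WT libraries. These overlapped (log2 fold change 0.22, SE 0.17, limma adjusted p = 0.563; 0.07 without cKO replicate 1), and Ube2c overlaps Tnnc2 on the other strand.

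Pttg1 encodes securin, which keeps separase inactive until anaphase. It had 22.0, 10.3 and 10.8 FPKM in cKO libraries and 15.7, 16 and 15.1 FPKM in WT libraries. One cKO library lay above all WT libraries and the other cKO libraries lay below them, so the fold change of -0.19 had an SE of 0.25 (limma adjusted p = 0.746). Pttg1 was singled out after its values had been seen. Without cKO replicate 1, which held its highest value, the log2 fold change was -0.52, with a limma adjusted p of 0.0512 unscaled and 0.0473 scaled. Leaving out the highest cKO value lowers a fold change in any case. On all libraries the scaled log2 fold change was -0.27 (SE 0.19, limma adjusted p = 0.462). With any other library left out, Pttg1 did not pass on either scale. Cdc20, which directs the complex to securin and cyclin B, stood at 0.10 (SE 0.12).

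Both transcription factors of the program were lower on average and overlapped. Foxm1 had 7.46, 5.96 and 5.41 FPKM in cKO libraries and 7.69, 6.92 and 7.43 FPKM in WT libraries, which is -0.21 on the log2 scale (SE 0.12, limma adjusted p = 0.468). Mybl2 ranged from 5.4 to 8.38 FPKM in cKO and from 7.14 to 8.46 FPKM in WT, with a log2 fold change of -0.18 (SE 0.15). With scaling the groups of both genes no longer overlapped, at -0.28 and -0.26, and neither passed.

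The 3 cKO libraries also differed among themselves. Without rescaling, cKO replicate 1 held the highest value of 28 of the 42 members, and the median deviation of the members from their own means there was 0.25 on the log2 scale, against 0.20 for all tested genes. In cKO replicate 3 only 1 of 42 members was above its own mean, with a median deviation of -0.20, against -0.04 for all tested genes. The 3 WT libraries lay between -0.05 and 0.08. After scaling, the medians were 0.05, -0.10 and -0.16 in cKO replicates 1, 2 and 3 and 0.10, 0.08 and 0.02 in WT replicates 1, 2 and 3. Replicate 1 of the cKO group then lay inside the WT range and the other cKO libraries below it.

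Without cKO replicate 1, 31 of the 42 members were negative on either scale, with a median of -0.20, against -0.00 for all tested genes unscaled and 0.00 scaled. Unscaled, leaving out cKO replicate 2 gave a member median of 0.02, against 0.12 for all tested genes, and leaving out cKO replicate 3 gave 0.03, against 0.11. Scaled, it was -0.09 in both cases, against 0.00 for all tested genes. Leaving out a WT library gave -0.06 to -0.02 unscaled, against 0.06 to 0.08 for all tested genes, and -0.13 to -0.10 scaled. With cKO replicate 1 left out and the tested genes held at 12442, 0 members passed unscaled. Scaled, 2 passed without that library, Mki67 (limma adjusted p = 0.0473) and Pttg1 (0.0473). Recomputing the filter on low values on the 5 libraries left without cKO replicate 1 was an alternative chosen after seeing the data. Mki67 and Pttg1 then passed unscaled (limma adjusted p = 0.0494 and 0.0466), and Mki67, Top2a and Pttg1 passed scaled (0.0446, 0.0472 and 0.0446). Short transcripts were the higher ones in cKO replicate 1. There the 21 members with the shorter transcripts had a median deviation of 0.31 and the 21 longer ones 0.19. Removing the dependence on transcript length and GC content from every library gave a median log2 fold change of -0.12 over the members, 31 of them negative.

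**Figure D4:**
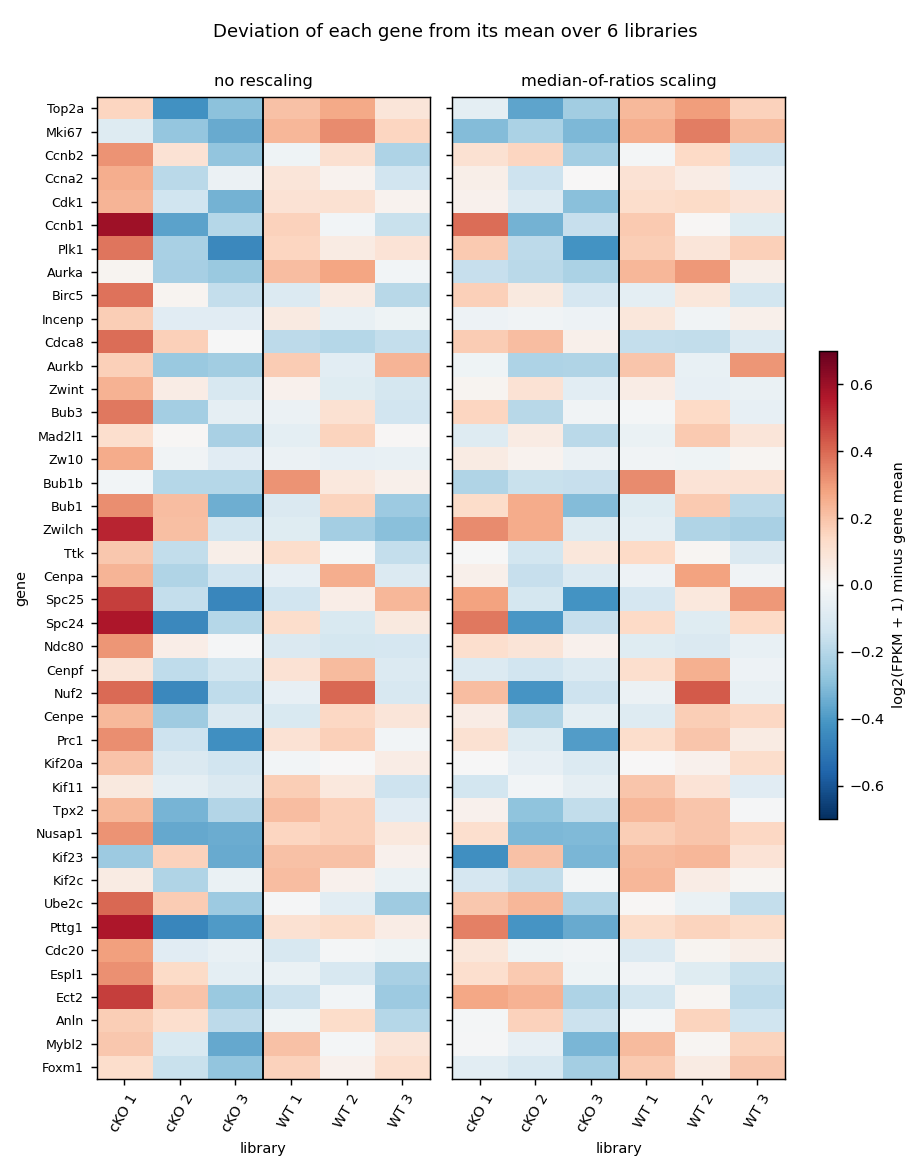
Deviation of each member from its own mean over 6 libraries, in log2(FPKM + 1), without rescaling (left) and after median-of-ratios scaling (right); columns are libraries with cKO left of WT, and red is above the mean. Without rescaling cKO replicate 1 is red in nearly every row (39 of 42 members above their mean) and cKO replicate 3 blue in nearly every row (1 of 42), and after scaling these counts are 26 and 3.

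The rest of the mitotic machinery was taken from further lists of named genes, and 0 of their members passed on either scale. Of 28 tested genes of the constitutive centromere and the remaining kinetochore, 19 were positive, with a median of 0.09 (0.03 scaled). Unscaled, 32.1% were negative, against 34.8% of all tested genes, whose median was 0.08 (0.00 scaled). Cenpp, a centromere protein, was at 5.94 ± 2.64 FPKM in cKO and 3.62 ± 0.325 FPKM in WT (SD, n = 3 libraries each), and Dsn1, of the complex that carries Ndc80, at 7.14 ± 0.835 FPKM in cKO and 5.60 ± 1.22 FPKM in WT. Of 13 further checkpoint genes 8 were positive and 38.5% negative (median 0.17, scaled 0.10). Kntc1, the ROD subunit that partners Zwilch and Zw10, had 2.55, 2.52 and 2.11 FPKM in cKO libraries and 3.13, 3.74 and 2.84 FPKM in WT libraries, which did not overlap (log2 fold change -0.32, SE 0.13, limma adjusted p = 0.33). Within this 3-protein complex Kntc1 and Zwilch thus had fold changes of opposite sign, and neither passed. Rae1, an mRNA export and checkpoint factor, was at 20.9 ± 5.95 FPKM in cKO and 15.1 ± 0.116 FPKM in WT.

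Of 16 subunits and regulators of the anaphase promoting complex 15 were positive, with a median of 0.13 that became 0.05 with scaling, where all tested genes had 0.08 and 0.00. Ube2s, which extends ubiquitin chains on its substrates, had a log2 fold change of 0.37 (SE 0.17), and Anapc16, a subunit, 0.27 (SE 0.14). Condensin and mitotic cohesin gave a median of 0.08 over 21 genes (0.00 scaled). Smc1a, a cohesin subunit, had 11.1, 8.85 and 10.2 FPKM in cKO libraries and 11.4, 12.5 and 12.2 FPKM in WT libraries, and Ncapg, a condensin subunit, was at 10.2 ± 1.70 FPKM in cKO and 8.16 ± 0.913 FPKM in WT.

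The list of 31 other spindle, motor and cytokinesis genes had 17 negative members (23 with scaling) and a median of -0.06 (-0.13 scaled). Aspm, a spindle pole protein, had 2.89, 2.46 and 2.45 FPKM in cKO libraries and 3.62, 3.86 and 3.57 FPKM in WT libraries. Those groups did not overlap, and the difference of -0.38 on the log2 scale (SE 0.11) missed the threshold (limma adjusted p = 0.205). Kif18b, a kinesin that shortens microtubules, stood at -0.27 (SE 0.11). Of 25 regulators of the G2 to M transition 13 were positive, with a median of 0.03 (-0.05 scaled). Cdca3, which takes part in the destruction of the mitosis inhibitor WEE1, had 8.31, 8.32 and 6.6 FPKM in cKO libraries and 10.3, 10.3 and 10.6 FPKM in WT libraries (log2 fold change -0.39, SE 0.11, limma adjusted p = 0.201). It passed with quantile normalization (0.0496) and with length and GC correction (0.0419), but not with median-of-ratios scaling (0.0646). Tk1, the thymidine kinase of cycling cells, stood at -0.50 (SE 0.18).

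Markers of the cell types of the ovary also differed between the groups, and their part in the results was not tested. The summed FPKM of 12 stroma markers was 978, 880 and 895 in cKO libraries and 1181, 1135 and 1123 in WT libraries, with 11 of 12 negative and 2 called lower after scaling (Col5a2 and Postn). Endothelial markers summed to 83.5, 68.1 and 71.3 in cKO and 106, 102 and 84.8 in WT (9 of 9 negative), pericyte and smooth muscle markers to 44.8, 39.4 and 38.3 in cKO and 57.4, 54.5 and 55.6 in WT (6 of 6 tested). Surface epithelium markers summed to 208, 132 and 143 in cKO and 224, 216 and 219 in WT, with all 8 tested negative, and Upk1b, a uroplakin of that epithelium, fell to 3.59 ± 1.03 FPKM in cKO, against 11.5 ± 1.04 FPKM in WT (SD, n = 3; limma adjusted p = 0.0428). After scaling, Upk1b and Upk3b of that epithelium and Acta2 of smooth muscle passed lower, and none of the endothelial, erythroid or leukocyte markers did.

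Germ cell markers went the other way, with sums of 456, 342 and 263 in cKO libraries and 207, 223 and 210 in WT libraries. Of the 16 tested markers 15 were positive, and Ddx4 was the exception at -0.07. None passed without rescaling, and 6 passed higher after scaling (Dazl, Sohlh1, Kit, Tex15, Mov10l1 and Hormad1). Stra8, whose promoter drives the Cre, was listed at 0 in all 6 libraries. The 16 pregranulosa and granulosa markers summed to 801, 640 and 656 in cKO and 680, 669 and 690 in WT, with 8 positive and 8 negative. After scaling 6 were positive and 10 negative, and 4 passed lower (Rspo1, Lhx9, Krt19 and Nr2f2) and 0 higher. The list was split: in Foxl2, Amhr2, Kitl and Cdkn1b every cKO value lay above every WT value on both scales. The reverse held for 5 markers without and 6 with scaling. Erythroid markers summed to 463, 468 and 534 in cKO and 772, 787 and 837 in WT, and macrophage and leukocyte markers overlapped, with 14.5 to 18.8 in cKO and 13.3 to 20.4 in WT.

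**Figure D5:**
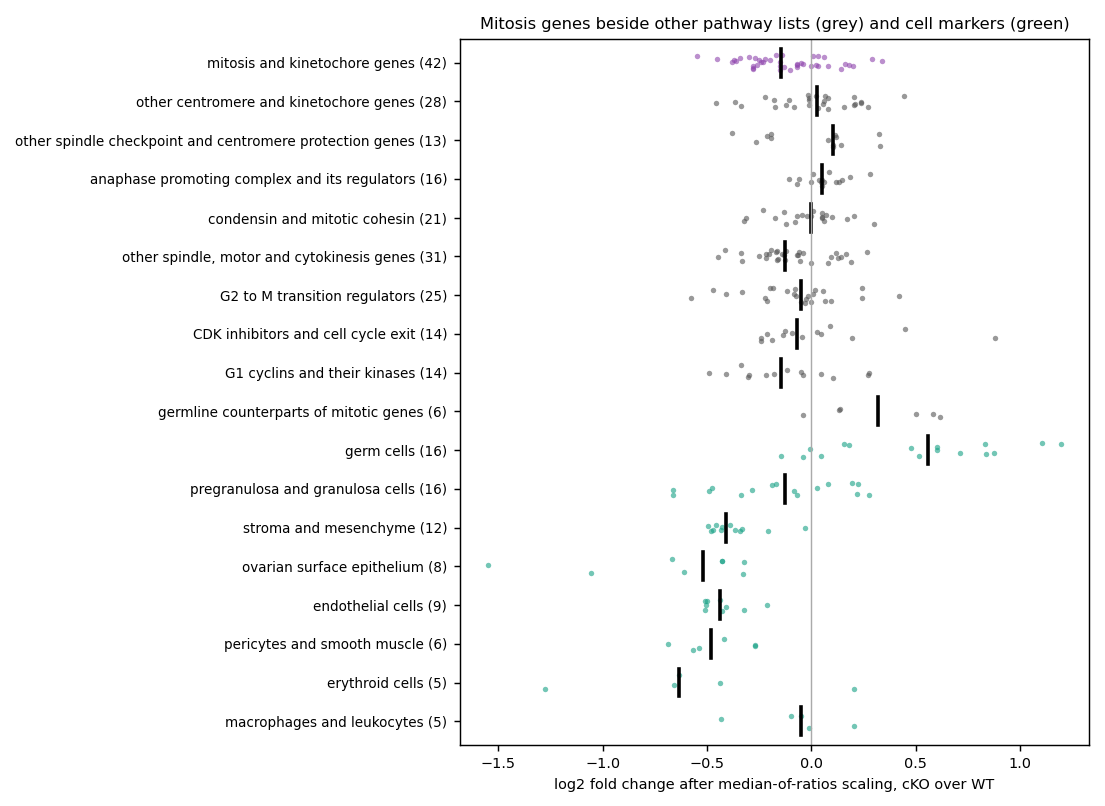
Log2 fold change of cKO over WT after median-of-ratios scaling for the 42 members (purple), the tested genes of the other cell division lists (grey) and the tested cell type markers (green), with the number of genes in brackets and black bars at the medians. The members have a median of -0.15 and lie within -0.55 and 0.34, the stroma markers have a median of -0.41, and the germ cell markers one of 0.56.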

How the data were processed

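Whole ovaries were profiled by RNA sequencing in 3 cKO and 3 WT libraries, made from amplified cDNA with a low-input kit, per the labels' protocols. The authors deposited 1 table of FPKM values per gene symbol. Per the submitters' processing notes, featureCounts 2.0.6, HISAT2 2.2.1 and STAR 2.7.11a are named with mm10, in roles that are not given. How FPKM was computed, the annotation release and the use of strand are also not given in the sources used here. Duplicate removal appears in the table's name alone. FPKM is relative to all mapped fragments, so 1 library with a shifted composition moves every gene in it.

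On log2(FPKM + 1), genes averaging 1 FPKM or more were compared by limma 3.58.1 (R 4.3.3; intensity trend, two-sided) with Benjamini-Hochberg adjustment over 12442 genes. Fold changes on this scale understate those of low genes. Depth was estimated from the steps of FPKM in 1144 genes, assuming 200 bp fragments. The fit was tested on simulated data.

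The members and the gene lists were chosen with earlier results of these data known. Members in full are the 8 with the smallest p, the 3 with the highest mean, the one with the smallest p of each role, and any called without or with scaling; of each other list the 2 with the smallest p are named. Lists carry no test. Alternatives varied the pseudocount, filter, scaling, trend, library weights, replicate block and libraries used; leaving out a library with the filter recomputed was added after seeing the data. Lengths and overlaps came from GENCODE M21, coordinates from RefSeq (GRCm38.p6).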

Additional observations from a re-analysis of the deposited data

How the results depend on the processing

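All genes called numbered 15 without rescaling, and 34 with a pseudocount of 0.1, 5 with no filter, 23 with a filter at a mean of 5, 161 with median-of-ratios scaling, 236 with quantile normalization, 149 with TPM rescaling, 5 with no intensity trend, 172 with library weights and 288 with length and GC correction. The replicate block gave 2 unscaled and 25 scaled. Deviations from the group means correlated at -0.011, 0.0392 and 0.0676 between same-numbered libraries and at -0.0664 to 0.0278 between the others. With 3 libraries a group this cannot decide whether the numbers pair them. With each library left out the count ran from 1 to 23 unscaled and from 2 to 155 scaled. With the filter and size factors recomputed on the 5 libraries left, chosen after seeing the data and after the first counts were known, it was 89, 4 and 74 without cKO replicates 1, 2 and 3 and 2, 2 and 6 without WT replicates 1, 2 and 3, and on scaled values 95, 24 and 209 without cKO replicates 1, 2 and 3 and 5, 40 and 28 without WT replicates 1, 2 and 3. The cause was not tested.

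Members called numbered 0 without rescaling, 1 with median-of-ratios scaling (Mki67), 2 with quantile normalization and with TPM rescaling (Mki67 and Top2a), 1 with library weights and 1 with length and GC correction (Mki67 in both). The replicate block gave 0 unscaled and 0 scaled, where Mki67 had an adjusted p of 0.0766. With each library left out, 0 were called unscaled and 0 to 2 scaled, and with the recomputed filter 0 to 2 unscaled and 0 to 3 scaled. Members without overlap numbered 4 unscaled (9.52%, against 22.6% of all tested genes) and 13 (31.0%) with median-of-ratios scaling (also with the block; 25.6% of all genes), quantile normalization (25.2%) and length and GC correction (27.3%), and 19 (45.2%) with TPM rescaling (24.8%). With a library left out they ran from 5 to 23 unscaled, against 29.0% to 37.7% of all genes, and from 15 to 23 scaled, against 32.9% to 41.4%. The 23 (54.8%) came without cKO replicate 1, where 34.9% of all genes unscaled and 35.9% scaled had no overlap, since 2 against 3 libraries overlap less often. The median of the members was -0.275 with TPM rescaling, where all tested genes had -0.12. Bub3 turned negative with median-of-ratios scaling and with its block (-0.045), quantile normalization (-0.076), TPM rescaling (-0.166), library weights (-0.098), length and GC correction (-0.048), and without cKO replicate 1 (-0.135) or WT replicate 3 (-0.017). The unscaled range with a library left out was -0.135 to 0.171. On scaled values it was -0.132 to 0.040, positive without cKO replicate 2 (0.041 with the recomputed filter) and WT replicate 2 (0.013, and 0.012 recomputed). Zwint turned negative with quantile normalization (-0.005), TPM rescaling (-0.085) and, scaled, without cKO replicate 2 (-0.009, in a range up to 0.078). The other 13 members chosen for full values by p, mean or role kept their sign under every alternative run. Nuf2 and Pttg1, whose values are also printed, were not among them.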

Other observations

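Genes that hold cells out of the cycle or start it were also read. Cdkn2a, which encodes the p16 and p19 inhibitors of the cell cycle, had 9, 4.72 and 3.42 FPKM in cKO libraries and 2.39, 1.42 and 3.24 FPKM in WT libraries. The groups did not overlap, and the difference of 0.95 on the log2 scale (SE 0.31) missed the threshold (limma adjusted p = 0.256). Cdkn2d, an inhibitor of the same family, was at 5.07 ± 1.56 FPKM in cKO and 3.16 ± 0.632 FPKM in WT (SD, n = 3 libraries each). The list of 14 tested inhibitors and exit genes had a median of 0.01 (-0.07 scaled), with 7 positive. Of 14 G1 cyclins, kinases and their regulators 8 were negative (median -0.08, scaled -0.15). Ccnd1, the cyclin of the G1 phase, had 7.76, 5.78 and 6.91 FPKM in cKO libraries and 9.59, 8.44 and 8.34 FPKM in WT libraries, and Mycn, a growth-promoting transcription factor, had 6.97, 6.06 and 7.67 FPKM in cKO and 9.7, 10.3 and 8.5 FPKM in WT. Neither group pair overlapped and neither gene passed (limma adjusted p = 0.294 for Ccnd1 and 0.205 for Mycn).

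Germline counterparts of mitotic genes, of which 6 of 14 were tested, were all positive without rescaling (median 0.40), and 5 of 6 with it (0.32). Stag3, the meiotic cohesin subunit, had 6.45, 5.15 and 4.42 FPKM in cKO libraries and 3.02, 2.72 and 3.25 FPKM in WT libraries (limma adjusted p = 0.129). Rec8, the meiotic kleisin, had 13.1, 10.4 and 9.6 FPKM in cKO libraries and 7.19, 6.3 and 7.5 FPKM in WT libraries (limma adjusted p = 0.145). Both passed with quantile normalization (0.0433 and 0.0449) and with length and GC correction (0.0386 and 0.0284). Germ cell markers were higher in the cKO libraries too, and their part in these values was not tested.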
